A study of Mus musculus with 3 samples.

Results

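*Isg15*, *Irf7*, *Oasl2*, *Gbp2*, *Bst2*, *Ifitm1*, *Ifitm2* and *Ifitm3* are genes that interferon induces, and their levels were described across the cell classes of the developing mouse urogenital sinus (UGS) and prostate. The 8 genes were taken by name from the deposited expression table, and all 8 had a row among the 9781 rows used. The study dissociated whole tissue with collagenase and TrypLE and made 1 droplet-based 3' single-cell RNA-seq library from each of 3 samples labelled normal, namely male UGS at E18.5, prostate at P14 and prostate at P35. The mice of the study were of mixed C57BL/6 and 129S1/SvImJ background and its lines carried *Osr1-Cre*, a membrane Tomato and GFP reporter or a human androgen receptor transgene, but the labels do not say which of these alleles the 3 samples carried or how many animals gave each library. The labels name v3 and the methods of the study v2 of the kit chemistry. Cells of all 3 libraries stand in 1 table and their barcodes end in 1 of 3 suffixes, which no label ties to an age. The cells are therefore described as barcode sets 1, 2 and 3, and no set was given an age. With 1 library per set there was no replicate and no test of a condition, and every interval covers counting error only.

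The unit throughout is the unique molecular identifier (UMI), a tag that marks 1 captured RNA molecule. A level is the sum of a gene's UMIs over the cells of a class, divided by the UMIs of all genes in those cells (CPM, counts per 1000000 UMIs), with an exact 95% Poisson interval. Set 1 held 766 cells with a median of 19357 UMIs, set 2 held 5350 cells with a median of 1738, and set 3 held 8360 cells with a median of 1801. Sets 1 and 2 shared 1 barcode sequence, sets 2 and 3 shared 13, and sets 1 and 3 shared none. The rows used held between 49.4 and 52.7% of all UMIs of a set, and genes without a row (*Irf1*, *Irf9* and *Ifng* among them) were not analysed here.

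Interferons are secreted proteins that warn cells of infection. Type I and type III interferons act through JAK kinases on a transcription factor complex that binds interferon-stimulated response elements in promoters, whereas interferon gamma acts mainly at gamma-activated sites. Most target genes are silent or low in uninfected tissue, but some, the IFITM genes above all, are also made without infection in many cell types.

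The genes are placed by RefSeq on GRCm38.p6, the assembly that matches the mm10 build of the files. *Isg15* lies at chr4:156199424-156200818, *Irf7* at chr7:141263183-141266499, *Oasl2* at chr5:114896926-114912245, *Gbp2* at chr3:142620663-142638008 and *Bst2* at chr8:71534255-71537472. The *Ifitm* genes lie close together, with *Ifitm2* at chr7:140954837-140959686, *Ifitm1* at chr7:140967429-140969827 and *Ifitm3* at chr7:141009590-141010744. They are paralogs, and how the counting divided reads between similar stretches of them is uncertain.

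The promoter windows of RefSeq, from 250 bases before to 50 bases after each start site, were searched for 2 copies of GAAA with any 2 bases between them, the core of the interferon-stimulated response element, on either strand (2 copies of TTTC when read on the other strand). At least 1 match was present in 5 of the 8 members, against 3.44% of all 32851 promoters and 3.22% of the 9359 promoters of genes with a row. The stretches that hold the matches are printed 5' to 3' on the strand of the gene, with the matches in capitals, to show where these 5 members hold the letters.
Isg15: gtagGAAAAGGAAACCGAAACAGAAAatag
Bst2: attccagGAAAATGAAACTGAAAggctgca
Gbp2: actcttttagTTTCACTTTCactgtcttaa
Ifitm2: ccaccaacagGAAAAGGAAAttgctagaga
Ifitm3: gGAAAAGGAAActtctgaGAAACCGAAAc

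The *Isg15* stretch (chr4:156200871-156200900, minus strand) ran from 82 to 53 bases before the start and held 3 overlapping matches, and that of *Bst2* (chr8:71537580-71537609, minus strand) ran from 137 to 108 bases before the start and held 2. *Gbp2* (chr3:142620594-142620623, plus strand, 69 to 40 bases before the start) and *Ifitm2* (chr7:140955988-140956017, minus strand, 56 to 27 bases before the start) held 1 match each, and the *Ifitm2* start used lies inside its annotated span. The *Ifitm3* stretch (chr7:141010715-141010743, minus strand) held 2 matches within the first 30 transcribed bases. The windows of *Irf7*, *Oasl2* and *Ifitm1* held no run of these letters. The gamma-activated pattern TTCNNNGAA was found in the windows of *Bst2* and *Ifitm3* and in 8.30% of all promoters. Such matches describe the letters of the window and show no binding.

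Cells were clustered with 76 genes left out, namely the 8 members, 67 other genes of the interferon pathway and the reporter row *EGFP*. The members thus did not shape the classes, and 11 of 13 clusters were given a class name from marker lists. Fibroblast-like cells (375, 1631 and 2605 cells in sets 1, 2 and 3), smooth muscle-like cells (73, 1644 and 1985) and epithelium-like cells (127, 1541 and 2869) were the larger classes. Endothelium-like (38, 96 and 197), leukocyte-like (38, 25 and 177), glia-like (21, 187 and 237), pericyte-like (11, 29 and 129) and neuron-like cells (33, 16 and 19) were few, and the suffix "-like" is left out in what follows. The endothelium list, 12 genes with a row, summed to 6535, 5461 and 5043 CPM in endothelium and to at most 41.7 CPM in leukocytes. The leukocyte list of 14 genes summed to 17654, 4330.3 and 13598 CPM in leukocytes and to at most 25.6 CPM in endothelium, so the defining genes of each of these classes were close to 0 in the other. The fibroblast list of 9 genes was at 15475, 16627 and 17853 CPM in fibroblasts.

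The libraries were less clean elsewhere. The epithelium list of 12 genes reached 55.1, 1187 and 2079 CPM in endothelium and 83.4, 3428 and 924 CPM in leukocytes, against 7358, 5830.5 and 6181 CPM in epithelium. In leukocytes of set 2 the smooth muscle list stood at 5977 CPM, above their own list, and in endothelium of set 2 the erythroid list stood at 4214 CPM and the smooth muscle list at 3749 CPM. The fibroblast list reached 5419, 6998 and 2594 CPM in pericytes, whose own list was at 3288, 2376 and 3866 CPM and in which the smooth muscle list was at 4664, 5363 and 9536 CPM. The fibroblast list also stood at 6185 and 5356 CPM in glia of sets 2 and 3. The smooth muscle list was at 4451 CPM in smooth muscle of set 1, under the fibroblast list there (5359 CPM), against 24187 and 23212 CPM in sets 2 and 3, and the erythroid list was at 5775 CPM there, so the class is less well defined in set 1. Genes of striated muscle (*Actc1*, *Tnnc2*) stood among its leading genes. The part of these RNAs in the levels was not tested.

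*Isg15* encodes a ubiquitin-like protein that is conjugated to other proteins and also secreted. In fibroblasts it was measured at 14.9, 32.8 and 448 CPM in sets 1, 2 and 3, and in endothelium at 49.4, 51.4 and 1063 CPM. Pericytes gave 7.26, 87.2 and 1153 CPM, leukocytes 35.4, 122 and 305 CPM, and glia 3.47, 126 and 351 CPM. Epithelium stayed at 1.63, 2.99 and 25.2 CPM and smooth muscle at 0, 7.33 and 27.2 CPM, whereas neurons had none in sets 1 and 2 and 38.5 CPM in set 3. The order in set 3 was pericyte, endothelium, fibroblast, glia, leukocyte, neuron, smooth muscle and epithelium. The intervals of pericyte (1009 to 1311) and endothelium (994 to 1136) overlapped, as did those of glia and leukocyte and those of the last 3 classes, while fibroblasts (426 to 469.6) stood apart from endothelium. The fibroblast interval still overlapped that of glia (285 to 427) at its edge.

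The set 1 level of *Isg15* in fibroblasts rested largely on 1 cell. That cell held 71 of the 107 *Isg15* UMIs of the class, and without it the level was 5.02 CPM. Of 114 combinations of gene, class and set with at least 20 UMIs, 2 had more than 50% of their UMIs in a single cell, the other being *Ifitm3* in neurons of set 2 (12 of 22 UMIs), whose level was 216 CPM with that cell and 115 CPM without it.

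The share of cells with an *Isg15* UMI followed the same split. In set 3 it was 80.7% in endothelium, 54.3% in pericytes, 27.9% in fibroblasts, 24.9% in glia and 23.7% in leukocytes, against 7.67% in epithelium and 2.92% in smooth muscle. Median depth differed between these classes, from 3572 UMIs in epithelium and 3094 in endothelium to 1611 in smooth muscle, 1325 in fibroblasts and 854 in glia. With each cell thinned to 900 UMIs the shares were 50.8% in endothelium, 41.0% in pericytes, 22.8% in fibroblasts, 18.3% in glia (109 of 237 cells deep enough), 13.1% in leukocytes, 2.19% in epithelium and 1.75% in smooth muscle. Neurons were too few to place (2 of 19 cells, 10.5%, interval 1.30 to 33.1%). The share that free RNA alone would give was not measured, and the low shares of epithelium and smooth muscle are given for comparison only.

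**Figure D1:**
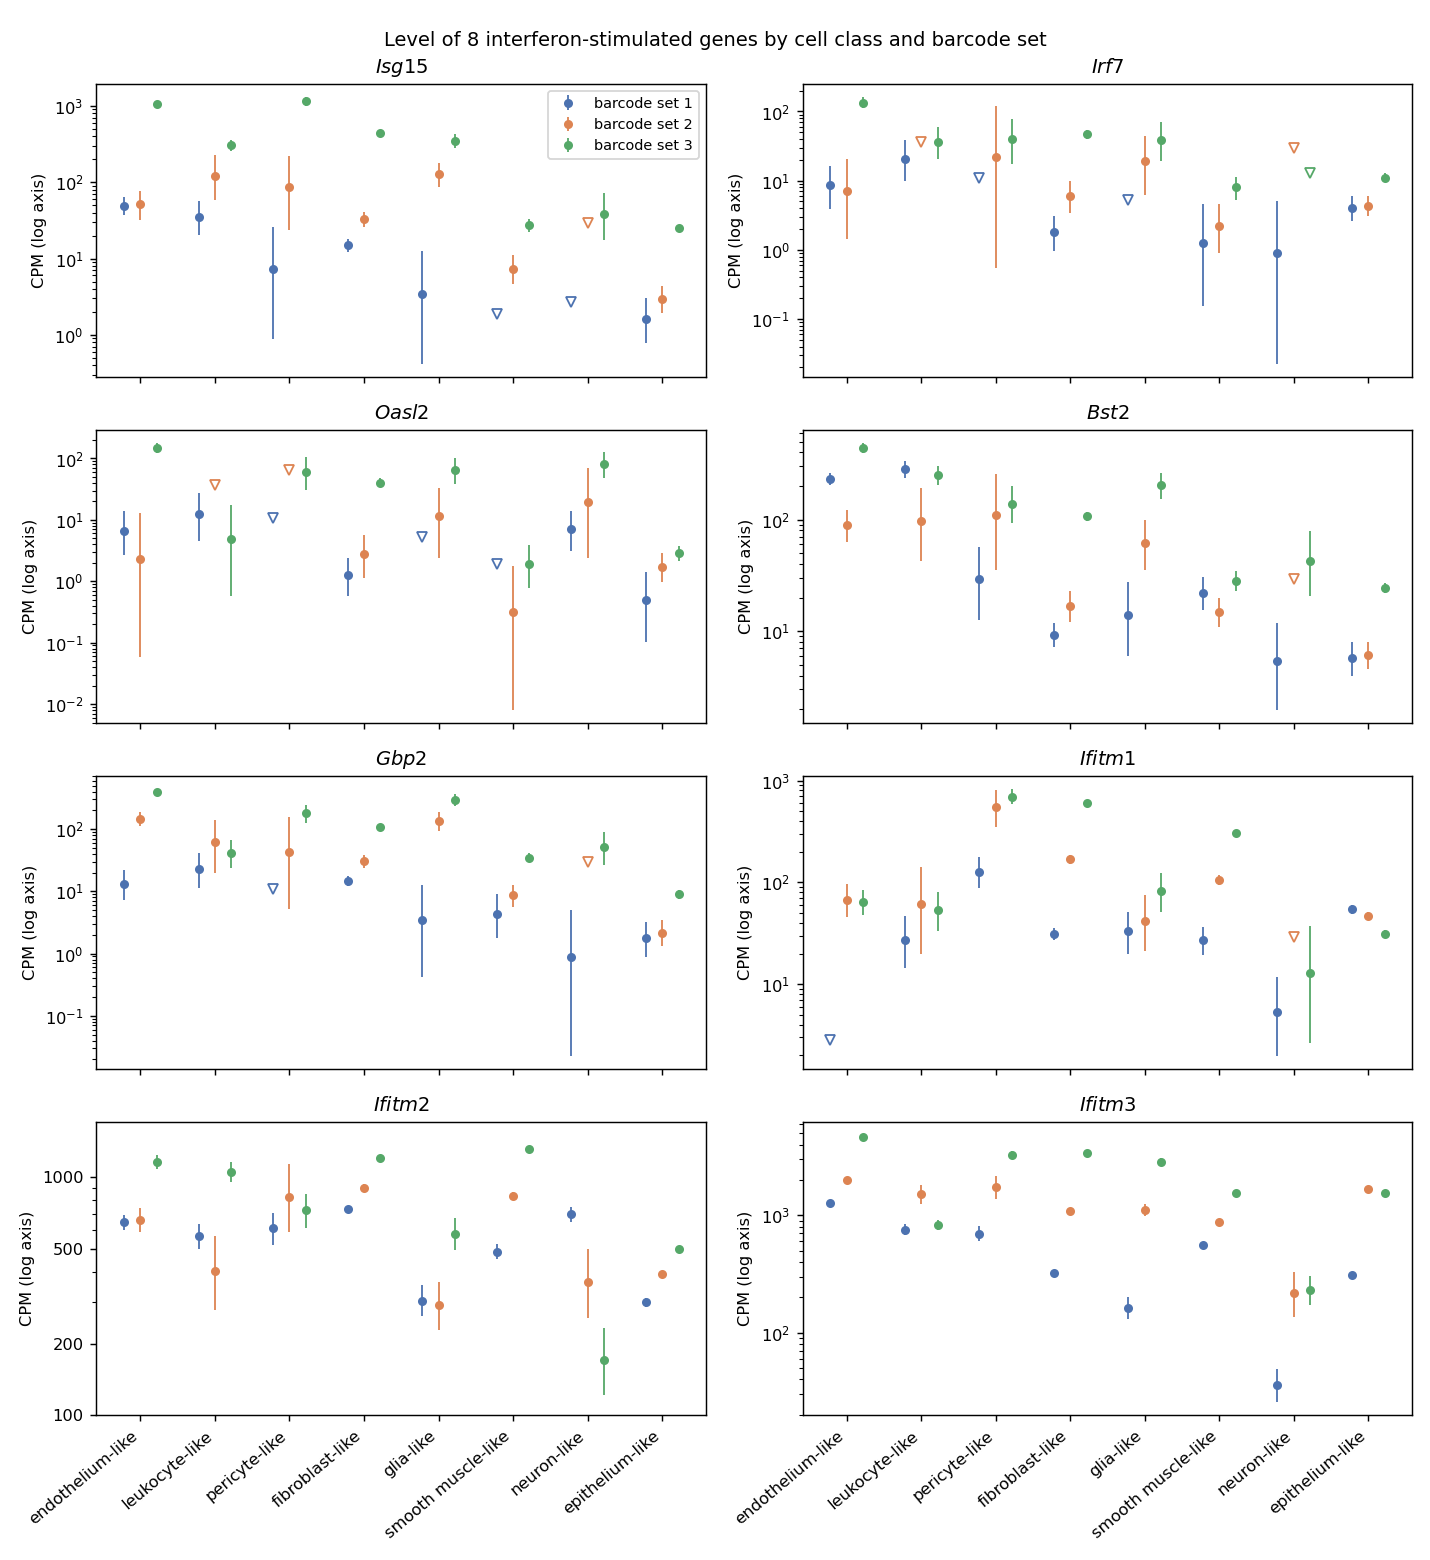
Level of each of the 8 genes (CPM, log axis) in each cell class, 1 point per barcode set with its exact 95% Poisson interval; open triangles mark a class with 0 UMIs, drawn at the rate of 3 UMIs. In set 3 *Isg15* reached 1153 CPM in pericytes and 1063 CPM in endothelium but 25.2 CPM in epithelium, while *Ifitm2* lay between 171 and 1312 CPM in every class.

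*Irf7* encodes the transcription factor that amplifies type I interferon production and is itself induced by interferon. It was low in sets 1 and 2, at 1.81 and 5.99 CPM in fibroblasts and 8.55 and 7.01 CPM in endothelium, and rested there on few molecules. In set 3 endothelium was at 135 CPM (111 to 162), above every other class. Fibroblasts (46.8 CPM), pericytes (39.8), glia (39.0) and leukocytes (36.3) followed with overlapping intervals, and epithelium (11.1 CPM) and smooth muscle (7.98 CPM) formed a lower pair that overlapped as well. Leukocytes gave 20.9 CPM in set 1 and no UMI in set 2, where a count of 0 allows up to 36.6 CPM. Neurons had no UMI in sets 2 and 3.

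*Oasl2* encodes a relative of the 2'-5' oligoadenylate synthetases. In set 1 it was at 1.25 CPM in fibroblasts, 6.65 CPM in endothelium and 12.5 CPM in leukocytes. In set 2 fibroblasts were at 2.80 CPM and endothelium at 2.34 CPM, the latter from 1 UMI. In set 3 endothelium reached 149 CPM (124 to 178), followed by neurons (81.3 CPM), glia (63.8), pericytes (59.6) and fibroblasts (40.4). The intervals of neurons (48.9 to 127) and endothelium met at their edges. Those of glia and pericytes overlapped both neurons and fibroblasts, whereas neurons and fibroblasts (34.2 to 47.4) stood apart. Leukocytes (4.84 CPM), epithelium (2.88) and smooth muscle (1.93) formed a low group. *Oasl2* was the only member whose level in neurons exceeded that in fibroblasts in set 3.

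*Gbp2* encodes a guanylate-binding protein, a GTPase of cell-autonomous defence. Fibroblasts gave 14.7, 30.4 and 107 CPM in the 3 sets and endothelium 13.3, 147 and 390.3 CPM, so that the classes did not differ in set 1 and stood apart in sets 2 and 3. Glia were at 3.47, 134 and 298 CPM, and their interval overlapped that of endothelium in sets 2 and 3. Pericytes were at 179 CPM, leukocytes at 41.1 CPM and smooth muscle at 34.9 CPM in set 3, and epithelium was lowest in that set at 9.05 CPM.

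*Bst2* encodes tetherin, which holds budding virions at the cell surface. It was higher in leukocytes and endothelium than in fibroblasts in every set, with 284, 97.6 and 249 CPM in leukocytes and 232, 88.8 and 436 CPM in endothelium, against 9.31, 16.8 and 107 CPM in fibroblasts. The 2 classes overlapped in sets 1 and 2, and endothelium was higher in set 3. Glia (13.9, 61.3 and 202 CPM) and pericytes (29.0, 109 and 139 CPM) came next in set 3, and their intervals overlapped those of leukocytes and fibroblasts, respectively. Smooth muscle gave 22.0, 15.0 and 28.3 CPM and epithelium 5.71, 6.09 and 24.5 CPM.

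The IFITM proteins sit in membranes and block the fusion of viruses with the cell, and the 3 measured here differed in where they were found. *Ifitm1* was highest in pericytes at 127, 545 and 696 CPM. Fibroblasts followed at 169 and 602 CPM in sets 2 and 3 and smooth muscle at 105 and 306 CPM, and in set 1 they gave 31.3 and 27.0 CPM. Pericytes and fibroblasts overlapped in set 3 only. Endothelium had no *Ifitm1* UMI in set 1 and 67.7 and 64.2 CPM in sets 2 and 3. Epithelium was at 54.2, 46.8 and 31.4 CPM, and there the interval of set 3 lay under that of set 2. Within its clusters the level went from 55.5 to 36.9 CPM in cluster 3 and from 26.7 to 10.7 CPM in cluster 4 between sets 2 and 3 but stood at 61.4 and 67.6 CPM in cluster 5, and the clusters made up different shares of the class in the 2 sets.

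*Ifitm2* was the most even member. It was measured at 732, 901 and 1204 CPM in fibroblasts, 487, 832 and 1312 CPM in smooth muscle and 645, 661 and 1158 CPM in endothelium, with overlapping intervals for fibroblasts and endothelium in set 3. Epithelium (298, 392 and 498 CPM) and glia (303, 291 and 578 CPM) were lower in each set, and neurons went from 697 CPM in set 1 to 171 CPM in set 3.

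*Ifitm3* was highest in endothelium in each set, at 1275, 1999 and 4631 CPM, although the interval of pericytes overlapped in set 2. Fibroblasts gave 325, 1094 and 3369.9 CPM and pericytes 697, 1744 and 3289.5 CPM, and these classes overlapped in set 3. Epithelium was at 312, 1671 and 1555 CPM and leukocytes at 753, 1513 and 828 CPM. Neurons were lowest in each set, at 35.9, 216 and 231 CPM. In set 3 all 197 endothelial cells had an *Ifitm3* UMI, as did 94.8% of fibroblasts and 95.0% of epithelial cells, and at 900 UMIs per cell the shares were 97.8, 90.2 and 73.6%.

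The classes were then compared with fibroblasts within each set. A gene was tested where the classes together held at least 20 UMIs, and it was called higher or lower where its CPM differed by at least 2-fold and the exact 95% interval of the ratio left out equality. Such a call compares cells of 1 library and carries no replicate error. The set 1 calls depend most on the processing, since without integration of the sets 4 of its 375 fibroblasts kept that name, and since 2 members remained testable in endothelium when each cell was thinned to 900 UMIs, of which 1 was called higher.

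Endothelium over fibroblasts called 4 members higher and 1 lower of 7 tested in set 1, against 10.7% of all genes higher and 18.3% lower. In set 2 it called 2 higher and 1 lower of 6 (12.8 and 9.27% of all genes), and in set 3 it called 5 higher and 1 lower of 8 (19.8 and 11% of all genes). The members' median log2 ratio was 1.73, 0.76 and 1.39 in the 3 sets, and that of all genes -0.23, 0.01 and 0.22. *Bst2* had the largest ratios, with a log2 ratio of 4.64 (95% interval 4.24 to 5.05), 2.40 (1.73 to 3.07) and 2.03 (1.82 to 2.24). The set 2 difference of *Bst2* was not seen at 900 UMIs per cell, where 1 of 89 endothelial cells (1.12%) and 18 of 1431 fibroblasts (1.26%) held a UMI, against 30.2 and 2.39% of cells at full depth. The log2 ratio of *Isg15* was 1.73 (1.22 to 2.22), 0.65 (-0.10 to 1.34) and 1.25 (1.13 to 1.37), so that set 2 alone did not show a difference. Without the single fibroblast with 71 UMIs the set 1 value was 3.30 (2.66 to 3.95). *Irf7* was higher in endothelium by 2.24 (0.84 to 3.58) in set 1, from 9 and 13 UMIs, and by 1.52 (1.17 to 1.87) in set 3. *Oasl2* was higher by 1.88 (1.53 to 2.24) in set 3, and *Gbp2* by 2.28 in set 2 and 1.87 in set 3. *Ifitm3* was higher by 1.97 in set 1 but by 0.87 and 0.46 in sets 2 and 3, under the 2-fold limit.

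*Ifitm1* went the other way in endothelium. It had 0 UMIs in endothelium of set 1 against 225 in fibroblasts, 11-fold lower with the floor of 3 UMIs. Its log2 ratio was -1.32 in set 2 and -3.23 (-3.65 to -2.84) in set 3. *Ifitm2* differed by less than 2-fold in each set (-0.18, -0.45 and -0.06).

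**Figure D2:**
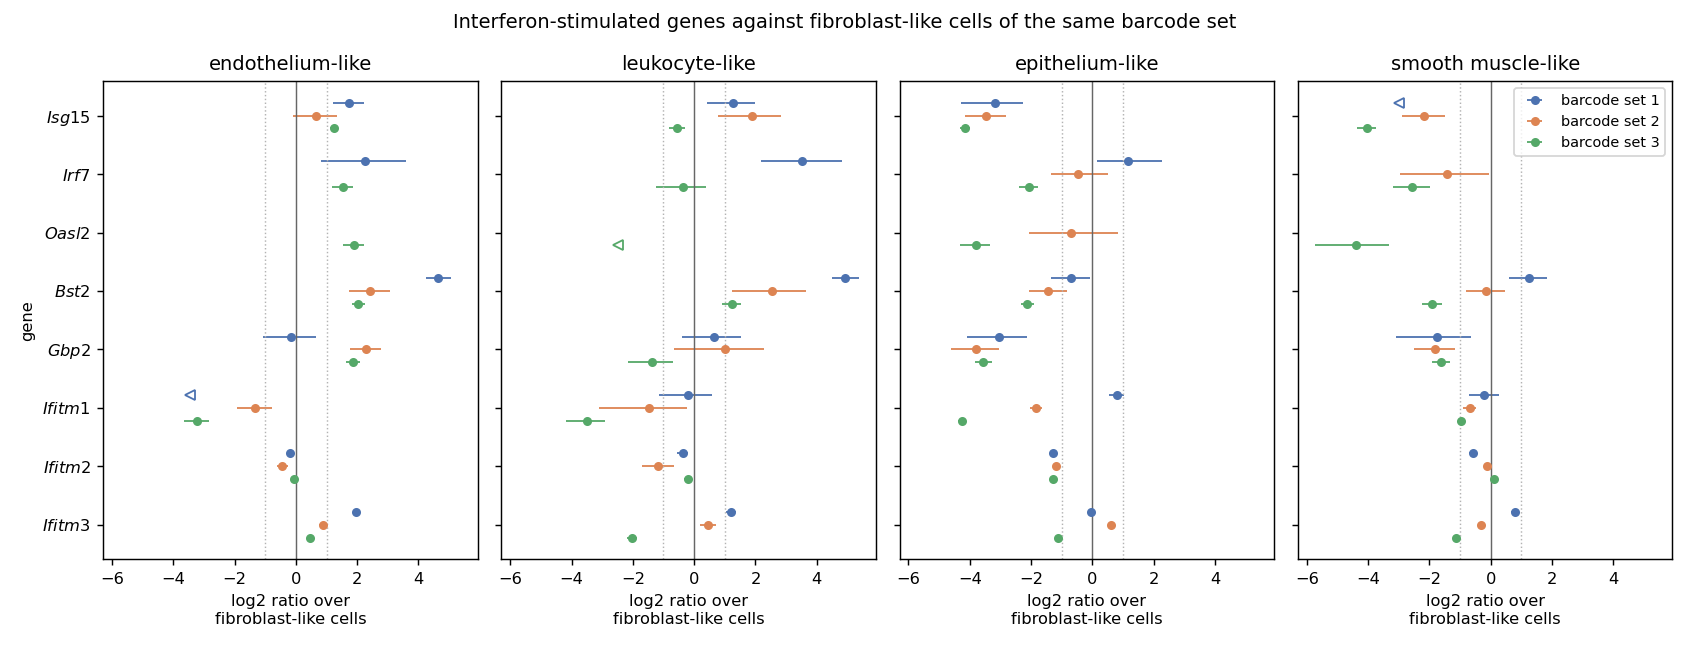
Log2 ratio of each gene in endothelium, leukocytes, epithelium and smooth muscle over fibroblasts, 1 point per barcode set with its exact 95% interval; an open triangle is a class with under 3 UMIs, set to 3, dotted lines mark a 2-fold difference and genes not tested have no point. *Bst2* lay at 4.64, 2.40 and 2.03 in endothelium, and all 8 genes lay below 0 in epithelium of set 3.

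Leukocytes over fibroblasts called 4 members higher and 0 lower of 7 in set 1 (15.2 and 23.3% of all genes), 2 higher and 2 lower of 6 in set 2 (10.8 and 7.38%), and 1 higher and 4 lower of 8 in set 3 (13.9 and 17%). *Bst2* was the member called higher in every set, with log2 ratios of 4.93, 2.54 and 1.22. It was not called in set 2 with at least 500 genes per cell (1.43) or in set 3 with cells classed one by one (0.42), and it could not be tested in set 1 without integration or at 900 UMIs per cell. *Isg15* was higher by 1.25 in set 1 (2.82 without the single fibroblast) and 1.90 in set 2 and stood at -0.55 in set 3, and *Irf7* was higher by 3.53 in set 1 and stood at -0.37 in set 3. The lower calls of set 3 were *Ifitm1* (-3.50), *Ifitm3* (-2.03), *Gbp2* (-1.38) and *Oasl2*, which had 2 UMIs in leukocytes. Set against leukocytes in place of fibroblasts, a comparison chosen after the values were seen, endothelium of set 3 had 5 members called higher and 0 lower of 8 (24.6 and 9.17% of all genes), among them *Gbp2* at 3.25, *Ifitm3* at 2.48, *Irf7* at 1.89 and *Isg15* at 1.80. The same comparison called 0 members either way of 5 tested in set 1 (21.6 and 14.6% of all genes) and 0 higher and 1 lower of 6 in set 2 (7.67 and 5.25%).

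Epithelium had most members called lower than in fibroblasts in sets 2 and 3 but not in set 1. It called 1 higher and 3 lower of 7 in set 1 (14.6 and 22.8% of all genes), 0 higher and 5 lower of 8 in set 2 (14.6 and 17.7%), and 0 higher and 8 lower of 8 in set 3 (20.5 and 20.3%). The median log2 ratio of the members was -0.70, -1.33 and -2.84, and that of all genes -0.16, -0.02 and 0.18. *Isg15* was 9.11-fold lower in set 1, 11-fold lower in set 2 and 17.8-fold lower in set 3, and without the single fibroblast the set 1 log2 ratio was -1.62 (-2.80 to -0.58) in place of -3.19. *Gbp2* had log2 ratios of -3.04, -3.80 and -3.56, and *Ifitm2* of -1.30, -1.20 and -1.27. These 3 genes were the members called lower in every set. *Ifitm1* went from 0.79 in set 1 to -1.85 in set 2 and -4.26 in set 3, where it was 19.1-fold lower. *Ifitm3* was within 2-fold in sets 1 and 2 (-0.06 and 0.61) and was called lower in set 3 at -1.12. *Irf7* was the member called higher in set 1, at 1.18 (0.15 to 2.27), and stood at -2.08 in set 3.

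Smooth muscle over fibroblasts called 1 member higher and 2 lower of 6 in set 1 (4 and 7.93% of all genes), 0 higher and 3 lower of 7 in set 2 (8.82 and 9%), and 0 higher and 6 lower of 8 in set 3 (11.9 and 14.2%). *Isg15* had 0 UMIs in smooth muscle of set 1. With the floor of 3 UMIs it was 7.89-fold lower than in fibroblasts, or 2.67-fold without the single fibroblast and no longer a call. *Bst2* was the higher call of set 1, at a log2 ratio of 1.24. That of *Isg15* was -2.16 in set 2 and -4.04 in set 3, where it was 16.4-fold lower. *Oasl2* (-4.39), *Irf7* (-2.55), *Bst2* (-1.91), *Gbp2* (-1.62) and *Ifitm3* (-1.12) were the other lower calls of set 3. *Ifitm2* (0.12) and *Ifitm1* (-0.98) differed by less than 2-fold there.

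The small classes were less evenly placed. Pericytes over fibroblasts called 3 members higher and 0 lower of 6 in set 1 (7.67 and 7.63% of all genes), 2 and 0 of 5 in set 2 (8.88 and 2.96%) and 1 and 0 of 8 in set 3 (14.4 and 7.67%), the last being *Isg15* at a log2 ratio of 1.36. *Ifitm1* was higher in pericytes by 2.02 in set 1 and 1.69 in set 2 and stood at 0.21 in set 3. Glia called 0 higher and 1 lower of 6 in set 1 (11.3 and 10.3%), 3 and 2 of 7 in set 2 (11.5 and 6.31%) and 1 and 2 of 8 in set 3 (16.6 and 6.72%). *Gbp2* was the member called higher in glia of both sets 2 and 3 (2.14 and 1.48), and *Ifitm1* and *Ifitm2* were lower in both. Neurons called 0 higher and 4 lower of 6 in set 1 (17.6 and 14.6%), 0 and 3 of 5 in set 2 (23.1 and 15.2%) and 1 and 7 of 8 in set 3 (30.1 and 18.6%). *Ifitm3* was lower in neurons in every set (-3.18, -2.34 and -3.87), and the higher call of set 3 was *Oasl2* at 1.01 (0.24 to 1.70).

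The fibroblasts formed 2 clusters that divided the members unevenly, a comparison chosen after the values were seen. Cluster 1, led by *Lamc3*, *Fgf21*, *Mmp2* and *Tmem119*, held *Isg15* at 1.41, 59.7 and 719.7 CPM in sets 1, 2 and 3, whereas cluster 2, led by *Dpt*, *Ptx3* and *Lum*, held it at 27.9, 13.6 and 153 CPM. The log2 ratio of cluster 1 over cluster 2 was -4.30 in set 1, 2.13 in set 2 and 2.24 in set 3. The cell with 71 UMIs belonged to cluster 2, and the set 1 ratio without it was -2.60, so that set 1 had the opposite order with and without that cell. That order rested on few molecules, with 5 *Isg15* UMIs in 2 of 224 cells of cluster 1 and 31 UMIs in cluster 2 without that cell. The share of cells with an *Isg15* UMI in set 3 was 39.0% in cluster 1 and 14.2% in cluster 2.

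Cluster 1 over cluster 2 called 3 members higher and 0 lower of 6 in set 2 (2.93 and 3.62% of all genes) and 4 and 0 of 8 in set 3 (4.27 and 4.56%). In set 1 it called 4 members lower of 6 (8.23% of all genes), *Isg15*, *Gbp2*, *Bst2* (-1.08) and *Ifitm3* (-1.31). In set 3 *Oasl2* (2.02), *Irf7* (1.21) and *Ifitm1* (1.19) moved with *Isg15*, while *Bst2* (0.92) and *Ifitm3* (0.59) were under the limit. *Gbp2* had log2 ratios of -4.63 (-6.53 to -3.23), -0.53 (-1.28 to 0.19) and -0.38 (-0.67 to -0.09), and was called in set 1 alone, from 4 and 102 UMIs.

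**Figure D3:**
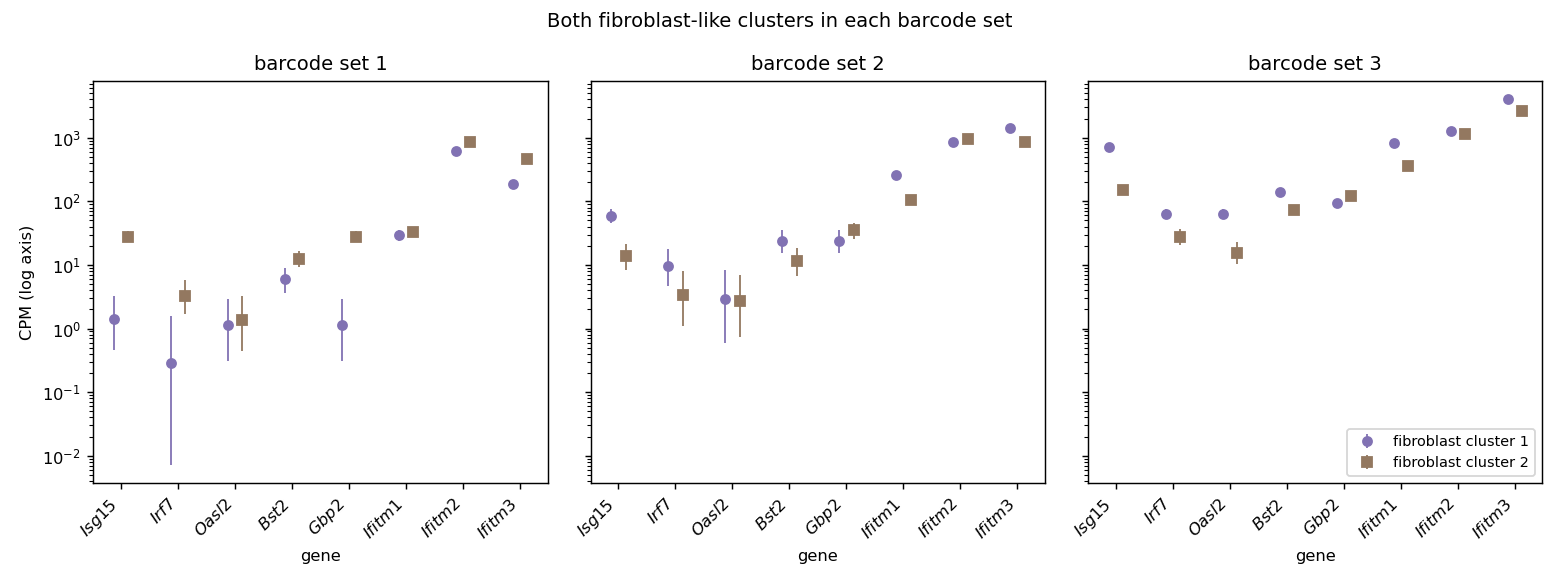
Level of each of the 8 genes (CPM, log axis) in fibroblast clusters 1 and 2 of each barcode set, with exact 95% Poisson intervals. *Isg15* was at 719.7 CPM in cluster 1 and 153 CPM in cluster 2 of set 3, and at 1.41 and 27.9 CPM in set 1.

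The epithelium held 3 clusters, 2 of them with *Serpinb5*, *Sfn* or *Lamb3* among their leading genes and 1 led by *Asprv1*, *Clca1* and *Tspan1*. The former over the latter, chosen after the values were seen, called 1 member higher and 1 lower of 5 in set 1 (13.7 and 9.9% of all genes), 3 and 0 of 6 in set 2 (10.6 and 5.72%) and 3 and 1 of 8 in set 3 (11.6 and 12.8%). *Ifitm3* was higher in each set (1.09, 1.09 and 1.60), but 2 cells held 342 of its 802 UMIs in the first group of set 1. Without the cell with 136 UMIs the set 1 log2 ratio was 0.87, without the cell with 206 UMIs it was 0.71, and neither was a call. *Ifitm1* was higher in sets 2 and 3 (1.18 and 2.39). *Bst2* was lower in set 3, at 10.1 CPM against 36.6 CPM, and *Gbp2* was higher by 1.44.

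The sets were also compared within a class, set 3 over set 2. No member was called lower except *Ifitm2* in neurons, and more than 50% of the members tested were called higher in fibroblasts, endothelium, smooth muscle and glia. This compares 2 libraries, was chosen after the values were seen, and cannot tell age, library and cells apart. Each library is of a different age, and no set was given one. Fibroblasts of set 3 over set 2 called 7 members higher and 0 lower of 8 (8.31 and 14.3% of all genes), with a median log2 ratio of 2.25 against -0.28 for all genes. Endothelium called 6 and 0 of 8 (7.06 and 7%; median 1.85 against -0.10), epithelium 4 and 0 of 8 (6.54 and 8.28%; 1.04 against -0.12) and smooth muscle 4 and 0 of 7 (4.73 and 12.7%; 1.54 against -0.21). Glia called 5 and 0 of 7 (6.8 and 9.48%), leukocytes 3 and 0 of 6 (4.81 and 11.1%), pericytes 1 and 0 of 6 (6.49 and 8.48%), and neurons 0 and 1 of 3 (5.45 and 4.76%). Median depths of sets 2 and 3 were close, at 1738 and 1801 UMIs per cell.

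*Isg15* differed between these libraries by 20.7-fold in endothelium, 13.7-fold in fibroblasts, 13.2-fold in pericytes and 8.43-fold in epithelium, with smaller log2 ratios of 1.89 in smooth muscle, 1.47 in glia and 1.32 in leukocytes. *Oasl2* differed by 14.4-fold in fibroblasts, and *Irf7* by a log2 ratio of 2.97 in fibroblasts and 4.26 in endothelium. *Bst2* was higher by 2.67 in fibroblasts, 2.30 in endothelium and 2.01 in epithelium, and *Gbp2* by 1.82, 1.41 and 2.05. Of the *Ifitm* genes, *Ifitm1* was higher by 1.83 in fibroblasts but stood at -0.08 in endothelium and -0.58 in epithelium as a whole, *Ifitm2* stayed within 2-fold in all 3 (0.42 in fibroblasts, 0.81 in endothelium), and *Ifitm3* was higher by 1.62 in fibroblasts and 1.21 in endothelium and stood at -0.10 in epithelium and -0.87 in leukocytes.

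**Figure D4:**
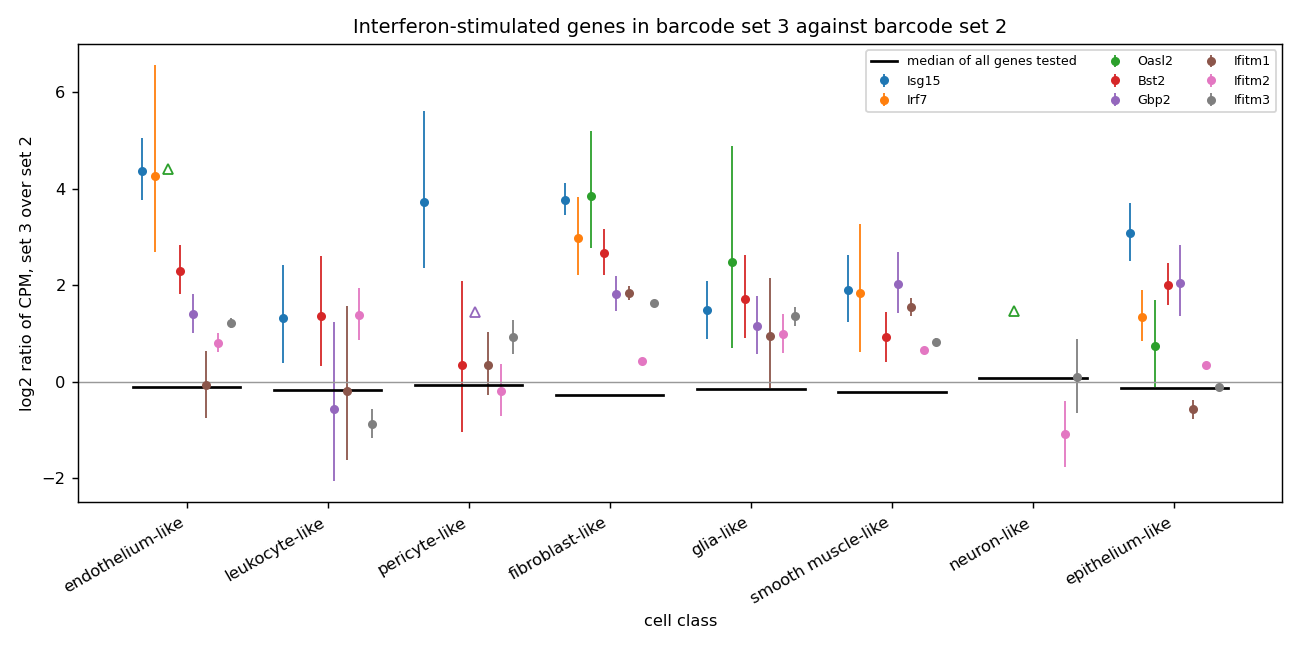
Log2 ratio of barcode set 3 over set 2 for each of the 8 genes within each cell class, with exact 95% intervals; an open triangle is a ratio in which set 2 had under 3 UMIs, set to 3, and black lines are the median of all genes tested. *Isg15* lay between 1.32 in leukocytes and 4.37 in endothelium, and *Ifitm1* between -0.58 in epithelium and 1.83 in fibroblasts among the classes named in the text.

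A list of 155 further genes of the pathway was read for the same classes, of which 67 had a row. Endothelium over fibroblasts called 20 of them higher and 1 lower of 33 tested in set 1, 8 and 3 of 28 in set 2, and 28 and 4 of 48 in set 3, where the median log2 ratio was 1.52. Leukocytes called 20 higher and 2 lower of 32, 8 and 1 of 13, and 12 and 5 of 41. Epithelium called 11 higher and 13 lower of 39, 5 and 16 of 36, and 4 and 30 of 53, and smooth muscle 1 and 1 of 28, 1 and 12 of 31, and 0 and 33 of 44. Set 3 over set 2 called 26 higher and 2 lower of 43 in fibroblasts and 31 and 0 of 41 in endothelium. The shares of all genes called in each comparison are those given beside the members.

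Among ligands, *Ifnk*, an interferon of keratinocytes, had 23 UMIs and *Ifne*, an interferon of the female reproductive tract, had 9 in set 1, of which 21 and 8 were in epithelium, and both had 0 in sets 2 and 3. The receptor subunit of interferon gamma, *Ifngr1*, was measured at 34.4, 35.2 and 27.2 CPM over all cells and was highest in leukocytes (186, 97.6 and 237 CPM). The receptor subunit of type III interferon, *Ifnlr1*, was at 5.55, 7.46 and 3.95 CPM in epithelium, and endothelium had no UMI of it. Of the signalling genes, the kinase *Jak1* was at 721 CPM in fibroblasts and 429 CPM in endothelium of set 3. *Stat2*, which encodes a part of the complex that type I interferon activates, was at 36.1 and 53.3 CPM in the same classes, and *Irf3*, the factor that acts before interferon is made, was at 21.1, 19.0 and 15.7 CPM over all cells of the 3 sets. *Usp18*, which removes ISG15 from proteins and dampens the receptor, was at 7.49 CPM in fibroblasts and 31.5 CPM in endothelium of set 3.

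Of the other target families, all 5 guanylate-binding protein genes tested were called higher in endothelium than in fibroblasts of set 3, with a median log2 ratio of 4.40. In that comparison 19.8% of all genes were called higher and 11% lower. *Gbp7* was at 235 against 36.4 CPM and *Gbp3* at 187 against 27.3 CPM. The p200 family of DNA sensors had 3 higher and 1 lower of 6, with *Ifi203* at 633 against 161 CPM, and the antiviral effectors had 7 higher and 1 lower of 10, with *Samd9l* at 150.3 against 29.4 CPM. The chemokine gene *Cxcl10* went against them, at 529 CPM in endothelium and 1208 CPM in fibroblasts. In epithelium all 6 p200 genes and all 3 guanylate-binding protein genes tested were lower than in fibroblasts of set 3, against 20.3% of all genes. *Ifitm6* had 54 UMIs in set 1, of which 51 were in leukocytes, 0 in set 2 and 10 in set 3, and *Ifi30*, a lysosomal thiol reductase of antigen processing, was at 879.9, 366 and 518 CPM in leukocytes. *B2m*, the light chain of class I antigen presentation, was at 112, 235 and 562 CPM over all cells.

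The genes whose pattern was most like that of a member were found by Pearson correlation of log2 levels over 24 profiles (8 classes in 3 sets) among 6408 genes. The profiles of a set share a library and its depth, so the values are a description. *Gbp2* (r = 0.91), *Ifih1* (0.90) and *Mndal* (0.85) were most like *Isg15*, *Isg15* (0.84), *Gbp3* (0.80) and *Trim12a* (0.80) most like *Irf7*, and *Herc6* (0.83), *Samd9l* (0.77) and *4932438A13Rik* (0.73) most like *Oasl2*. *Mndal*, *B2m* and *Isg15* (0.84 each) were most like *Bst2*, and *Isg15* (0.91), *Gbp3* (0.88) and *Gbp7* (0.86) most like *Gbp2*. The lists of 5 members thus held mostly other members or genes of the pathway list read above. Those of the *Ifitm* genes did not: *Serping1* (0.86), *Ier5* (0.83) and *Errfi1* (0.83) were most like *Ifitm1*, *Tgm2* (0.79), *Adamts4* (0.71) and *Hmgn5* (0.70) most like *Ifitm2*, and *Clic4* (0.88), *Zc3hav1* (0.81) and *Tor1aip1* (0.81) most like *Ifitm3*. Among pairs of members the highest value was that of *Isg15* with *Gbp2* (0.91) and the lowest that of *Oasl2* with *Ifitm1* (0.02).

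Single cells of set 3 were divided by whether they held an *Isg15* UMI. Of fibroblasts with one (728) and without one (1877), 10.3 against 3.04% held *Oasl2*, 10.2 against 4.85% *Irf7*, 20.6 against 8.79% *Bst2*, 14.8 against 8.58% *Gbp2* and 57.4 against 42.6% *Ifitm1*. Median depth was 1407.5 and 1295 UMIs. At 900 UMIs per cell (507 and 1719 cells) the shares were 7.10 against 2.44% for *Oasl2*, 7.30 against 2.68% for *Irf7*, 15.6 against 6.22% for *Bst2*, 12.6 against 6.52% for *Gbp2* and 43.2 against 32.4% for *Ifitm1*. The exact intervals of these 5 genes stayed apart at equal depth, as did those of *Ifitm3* (97.0 against 88.2%), whereas those of *Ifitm2* (68.4 against 64.6%) overlapped. The groups differed in their clusters, since 564 of the 728 cells with *Isg15* and 884 of the 1877 without it belonged to cluster 1. Within each cluster at 900 UMIs per cell, a division added after the values were seen, the intervals stayed apart for *Bst2* (16.2 against 7.43% in cluster 1, 13.5 against 5.25% in cluster 2) and *Ifitm3* in both clusters, for *Oasl2* in cluster 1 (8.08 against 3.91%) and for *Gbp2* in cluster 2 (25.2 against 7.88%). Those of *Irf7*, *Ifitm1* and *Ifitm2* overlapped in both, and *Ifitm1* was at 46.2 against 44.7% in cluster 1. The cells are of 1 library and are not replicates.

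In endothelium the 2 groups differed more in depth. Cells with *Isg15* (159) held *Oasl2* in 44.0% and cells without (38) in 5.26%, with 38.4 against 10.5% for *Irf7*, 70.4 against 31.6% for *Bst2* and 61.0 against 13.2% for *Gbp2*, but median depth was 3577 against 1493 UMIs. At 900 UMIs per cell (91 and 88 cells) the shares were 19.8 against 9.09% for *Oasl2*, 16.5 against 9.09% for *Irf7*, 39.6 against 25% for *Bst2* and 34.1 against 18.2% for *Gbp2*. These 4 shares were higher in cells with *Isg15*, whereas *Ifitm1* (4.40 against 9.09%) and *Ifitm2* (67.0 against 69.3%) were lower and *Ifitm3* was near its ceiling (100 against 95.5%). The intervals overlapped for all 7 genes, and the differences were not tested, since the cells come from 1 library.

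**Figure D5:**
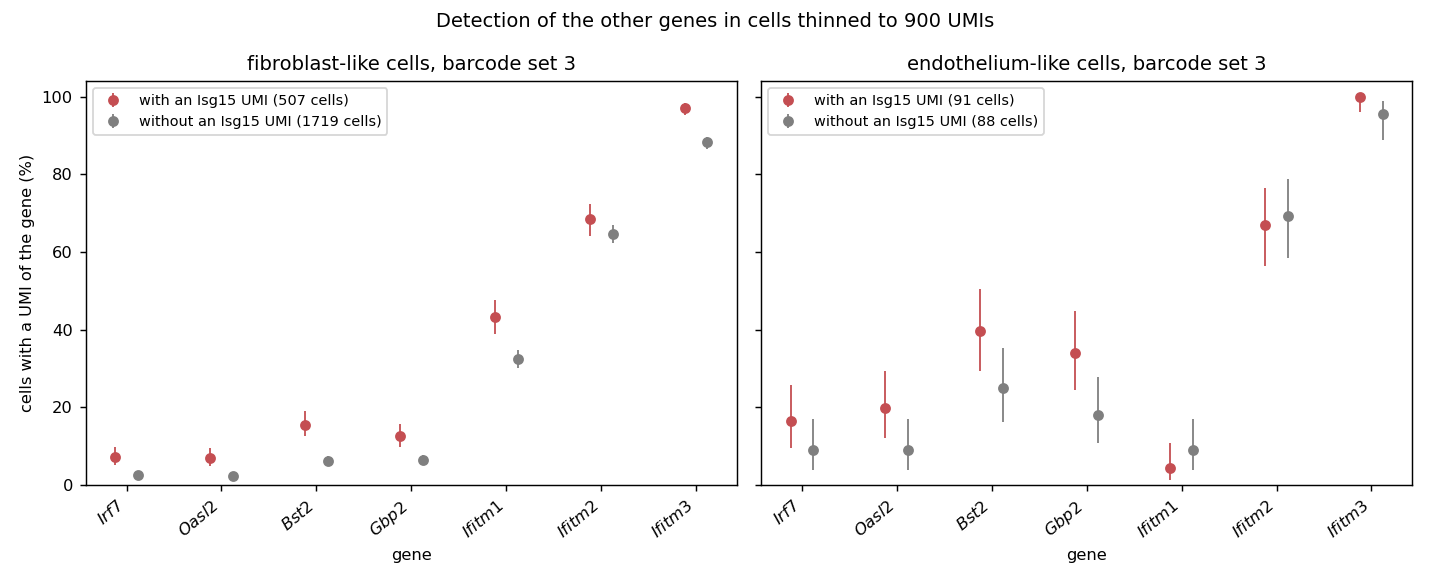
Percent of set 3 fibroblasts and endothelial cells with a UMI of each other member, among cells with and without an *Isg15* UMI, at 900 UMIs per cell with exact 95% binomial intervals. In fibroblasts *Bst2* was held by 15.6% of cells with *Isg15* and 6.22% of cells without; in endothelium the values were 39.6 and 25% and their intervals overlapped.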

How the data were processed

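Per the labels and the study's methods, the authors counted UMIs with Cell Ranger 3.1.0 against mm10 and filtered cells by RNA quality and multiplets. They deposited 1 table of natural log values, ln of 1 plus UMIs per 10000 of the cell. The table was held in part, with 9784 rows and 14573 cells (rows of some chromosomes, with no mitochondrial genes). Each of the 11120293 values above 0 gave a whole UMI (within 0.05). Left out were 3 rows and 97 cells under 200 genes. Sets were integrated in Seurat 5.3.0 (R 4.3.3, 2000 features, 20 dimensions, 30 components, resolution 0.5), and classes were named from marker lists by a scoring rule set after clustering. Scrublet (scanpy 1.11.5) marked 3, 0 and 0 cells in the 3 sets, and none were removed. Ratios were log2 of CPM, with exact intervals (scipy 1.17.1) from the binomial split of UMIs. Sums under 3 UMIs were set to 3, and a gene whose class under that floor would exceed the other class was not tested. In a simulation, 600 cells per set were drawn from the summed profile of all its cells and split into equal groups. Of the genes tested, 4-fold changes were called in 98.84, 97.8 and 95.7% in sets 1, 2 and 3. Unchanged genes were called in 0.4657, 1.422 and 1.623%. The classes compared were of unequal size and their cells do not share 1 profile, so these rates need not hold for them. Named were all 8 members, fixed pathway genes (1 is not reported here) and the 3 genes most alike to each member (correlation of log2 of CPM plus 5). Members and lists were chosen with earlier results of these data known. RefSeq matched 9273 rows by name.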

Additional observations from a re-analysis of the deposited data

Results flagged for a closer look

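*Ifitm3*, *Irf7* and *Bst2* were called at least 2-fold higher than in fibroblasts in 1 barcode set and at least 2-fold lower in another. Opposite signs under the 2-fold limit, such as *Ifitm1* in epithelium (0.79 in set 1) or *Isg15* in leukocytes (-0.55 in set 3), were not counted. The difference between the sets was not tested, since each set is 1 library. For *Ifitm3*, the log2 ratio of leukocytes over fibroblasts was 1.21 (1.05 to 1.37) in set 1 and -2.03 (-2.18 to -1.87) in set 3. Its level was 325 CPM in fibroblasts of the first and 3369.9 CPM in those of the second, while leukocytes stood at 753 and 828 CPM. The set 1 ratio was no longer a call at resolution 1 (0.76), without integration (0.37) and at 900 UMIs per cell (0.95). For *Irf7*, the log2 ratio of epithelium over fibroblasts was 1.18 (0.15 to 2.27) in set 1 and -2.08 (-2.38 to -1.77) in set 3. Its set 1 ratio was 0.54 (-0.51 to 1.67) at resolution 1, and the gene was not testable there without integration or at 900 UMIs. For *Bst2*, that of smooth muscle over fibroblasts was 1.24 (0.61 to 1.85) in set 1, whose smooth muscle was less well defined, and -1.91 (-2.24 to -1.60) in set 3. Its set 1 ratio was 0.73 with cells classed one by one, with an interval that held 0, and it too was not testable without integration or at 900 UMIs.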

How the results depend on the processing

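Of the counts of members higher or lower in a class, 103 stayed within 1.5 times the reported count over the alternatives and 17 did not. Of the single-gene ratios testable in both the reported and the alternative setting, 517 moved by less than their counting interval, 128 moved further and 0 reversed. Ratios that an alternative left untestable, as at 900 UMIs per cell or without integration, are not among these. Without integration the set 1 counts fell to 0 higher in endothelium (2 members tested), 0 higher in leukocytes, 0 higher and 1 lower in epithelium and 0 lower in smooth muscle (0 tested), because 479 cells of set 1 then lay in clusters with no class name. With cells thinned to 900 UMIs the set 1 counts were 1 higher in endothelium, 0 higher in leukocytes, 0 higher and 1 lower in epithelium and 0 lower in smooth muscle, and 1 member was higher in endothelium of set 2, with fewer genes testable. With at least 500 genes per cell, set 2 had 4 members higher in endothelium and 0 in leukocytes. At resolution 1, set 1 had 2 higher in leukocytes and 0 in epithelium. With cells classed one by one, leukocytes had 1 member higher in set 2 and 0 in set 3. The cause of these last 3 shifts was not tested. Leaving out the 5% of cells with the highest doublet scores, weighing cells equally or keeping the interferon genes among the clustering features moved none of these counts by more than 1.5 times. Leaving out the fibroblast with 71 *Isg15* UMIs, an alternative chosen after seeing the data, gave set 1 log2 ratios of 3.30 in endothelium, 2.82 in leukocytes and -1.62 in epithelium. Leaving out cells with much *Ifitm3* from the epithelium clusters of set 1, also chosen after seeing the data, gave ratios between 0.40 and 1.23. An alternative without mitotic clusters was not run, since the mitotic cluster carried no class name. No paired analysis was possible because a set is a single library. Depth limits the small classes of set 2 most: 0 UMIs of *Irf7* in its leukocytes still allow 36.6 CPM.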

Other observations

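The cells of 2 clusters were given no class name and enter no comparison. The cluster led by mitotic genes (18, 141 and 45 cells) held *Isg15* at 189 CPM and *Gbp2* at 102 CPM in set 3. The cluster led by *Wfdc15b*, *Folr1*, *Ivl* and *Upk1a* (32, 40 and 97 cells) held *Isg15* at 55.4 CPM and *Bst2* at 70.9 CPM in set 3, above the 25.2 and 24.5 CPM of the named epithelium.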
